A study of Mus musculus with 8 samples.

Results

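Nfkb2-KO and RelB-KO regulatory T (Treg) cells of the mouse were compared here, each lacking 1 of the 2 subunits that together carry the alternative NF-kB pathway. The comparison uses 4 libraries of the 8 in the series, 2 of each single deletion, and it asks on which genes the deletions acted in opposite directions. All 4 genotypes were on C57Bl/6 with Foxp3-CRE-YFP, a Cre recombinase with a yellow fluorescent reporter that is active in Foxp3-expressing cells. WT cells had the Cre with no floxed allele, RelB-KO cells had RelB F/F, Nfkb2-KO cells had nfkb2 F/F, and DKO cells had both floxed genes. Deletion was thus directed by design to cells that express Foxp3. The other cells of the animals, which had no active Cre by this design, were not measured. Reporter-positive cells were sorted from spleen and lymph nodes pooled for the sort. They were then kept for 16 h on antibody to CD3 (5 µg/ml) with antibody to CD28 (1 µg/ml), an OX40 agonist antibody (2 µg/ml) and IL-2 (10 ng/ml). No age or sex is stated in the labels, which also do not say whether replicates came from separate animals, so p-values measure the spread between these libraries, which may be technical.

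The alternative pathway starts at receptors such as OX40, RANK and the lymphotoxin beta receptor. These stabilise the kinase NIK, which leads to processing of p100, the precursor protein made from Nfkb2, into p52. Before it is processed, p100 binds RelB and holds it in the cytoplasm, while p52 pairs with RelB on DNA. The Nfkb2 gene therefore encodes both an inhibitor and a partner of RelB, and the 2 deletions need not have the same effect.

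Values are the deposited log2 expression values, on which 1 unit is a doubling. Differences are given ± the standard error of a limma model fitted to all 8 libraries with the replicate number as a block, and a gene counts as called where its p, adjusted by Benjamini-Hochberg over 13797 genes, is under 0.05. The scale appears to shrink low values, which the sources do not state, so differences of weakly expressed genes may be understated. Depth per library is not known apart from the 30 M reads that the design foresaw.

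Each deletion was visible in its own transcript. Relb stood at 6.35 and 6.52 in the RelB-KO libraries and at 10.84 and 10.83 in the Nfkb2-KO libraries, a difference of 4.40 ± 0.12. Nfkb2 stood at 8.75 and 8.79 in Nfkb2-KO and at 12.67 and 12.31 in RelB-KO, a difference of -3.73 ± 0.18. Foxp3, the factor that defines the lineage, differed by -0.14 ± 0.10 between the deletions (limma adjusted p = 0.487), and Il2ra (-0.01 ± 0.11), Ctla4 (0.05 ± 0.10) and Il10 (0.64 ± 0.19, adjusted p = 0.102) did not pass either. The B cell markers Pax5 and Fcrla were listed at 0 in all 8 libraries. The summed un-logged level of 9 other B cell markers lay between 272 and 274 in Nfkb2-KO and between 241 and 293 in RelB-KO, and that of 14 myeloid and dendritic cell markers between 232 and 317 and between 251 and 327. T cell identity genes summed to between 89700 and 101000 in Nfkb2-KO and between 89000 and 93800 in RelB-KO. Of the 11 CD8 T and NK cell markers measured (Klra1 was at 0), the sum was 650 to 664 in Nfkb2-KO and 440 to 575 in RelB-KO. Without the chemokine gene Xcl1 that sum was 292 to 307 and 273 to 319. Among the markers, Xcr1 of dendritic cells was lower in Nfkb2-KO (-0.38 ± 0.09).

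The largest differences between the single deletions were in genes higher in Nfkb2-KO, among them genes of adhesion, the cytoskeleton and retinoic acid synthesis. Dscam, an adhesion molecule of the immunoglobulin superfamily (chromosome 16, 96590840 to 97170752, minus strand, mm10), stood at 9.95 and 9.94 in Nfkb2-KO and at 6.00 and 6.32 in RelB-KO. The difference was 3.79 ± 0.17 (limma adjusted p = 1.58e-05), or 13.8-fold. Thsd7a, a membrane protein with thrombospondin repeats, stood at 9.32 and 8.54 against 5.25 and 5.41 and differed by 3.60 ± 0.30. Aldh1a2, an enzyme of retinoic acid synthesis on the plus strand of chromosome 9 (71215789 to 71296243), stood at 8.49 and 8.72 against 5.87 and 6.12, a difference of 2.61 ± 0.11. In these genes the libraries of the deletions were far apart and did not overlap.

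The other genes among the 15 with the largest positive difference ran from 2.93 ± 0.15 for Sh3pxd2b, an adaptor of podosomes, to 1.91 ± 0.17 for Stc1, a secreted glycoprotein. Between them lay the myosin Myo3b (2.76 ± 0.19) and the matrix proteoglycan Hspg2 (2.57 ± 0.11). The actin-severing protein Scin (2.49 ± 0.21), Sspo (2.39 ± 0.22), the scaffold protein Whrn (2.27 ± 0.14) and the ubiquitin ligase Rnf165 (2.25 ± 0.12) followed. Ecel1, a metalloprotease (1.99 ± 0.34), Asb2, a ubiquitin ligase subunit (1.93 ± 0.21), Vcam1, an adhesion molecule (1.93 ± 0.15), and Pkdcc, a secreted kinase (1.93 ± 0.25), completed them. Ecel1 was the least even of the 15, at 9.15 and 7.98 in Nfkb2-KO against 6.50 and 6.66 in RelB-KO. For several of the 15 the difference between the 2 log2 fold changes in the authors' deposited table was much smaller than the fitted one. It was 0.82 for Thsd7a, 0.80 for Rnf165, 0.53 for Ecel1, 1.06 for Asb2, 1.46 for Scin and 1.70 for Myo3b in the authors' deposited table, which would place these genes lower in the order.

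Genes lower in Nfkb2-KO than in RelB-KO included enzymes of cyclic nucleotide breakdown, interferon-induced GTPases and genes of resting T cells. Pde2a, a phosphodiesterase, stood at 8.64 and 8.53 in Nfkb2-KO and at 10.81 and 10.09 in RelB-KO (-1.87 ± 0.16, adjusted p = 0.000467). Gbp1, a guanylate-binding protein (annotated as Gbp2b on chromosome 3, 142594847 to 142619179, plus strand), stood at 6.72 and 6.93 against 8.75 and 8.61 (-1.86 ± 0.13). Satb1, a chromatin organizer, stood at 10.60 and 10.65 against 12.20 and 11.94 (-1.45 ± 0.16). No library overlapped between the deletions in these 3 genes.

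The granule protease Gzmb (-1.37 ± 0.15), the integrin subunit Itgb3 (-1.33 ± 0.09), Sytl2, an effector of Rab27 in vesicle transport (-1.30 ± 0.16), and Il6ra, the IL-6 receptor alpha chain (-1.29 ± 0.10), were next. They were followed by Gbp2 (-1.28 ± 0.16), transferrin, Trf (-1.16 ± 0.16), and the myosin Myo6 (-1.15 ± 0.24). Stab1, a scavenger receptor (-1.12 ± 0.15), Ikzf3, the lymphoid transcription factor Aiolos (-1.12 ± 0.08), Tanc2, a scaffold protein (-1.08 ± 0.10), and Matn2, a matrix protein (-1.06 ± 0.11), were also among the 15 largest negative differences.

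In all, 615 genes were called, which is 4.46% of those tested, with 384 (2.78%) higher and 231 (1.67%) lower in Nfkb2-KO. All 615 had the same sign in both replicate numbers, and in 603 of them the Nfkb2-KO and RelB-KO libraries did not overlap, as they did not in 42% of all genes tested. Apart from Relb and Nfkb2, the differences had a median of 0.60 among genes called higher and -0.52 among those called lower. With both included, 85 called genes (0.616%) differed by at least 1 unit. An unadjusted p under 0.05 was reached by 20.1% of all genes. Without the replicate block 110 genes were called (91 higher, 19 lower), each of them also called with it. With the block the count was 229 without Nfkb2-KO replicate 1, 393 without Nfkb2-KO replicate 2, 352 without RelB-KO replicate 1 and 327 without RelB-KO replicate 2.

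**Figure D1:**
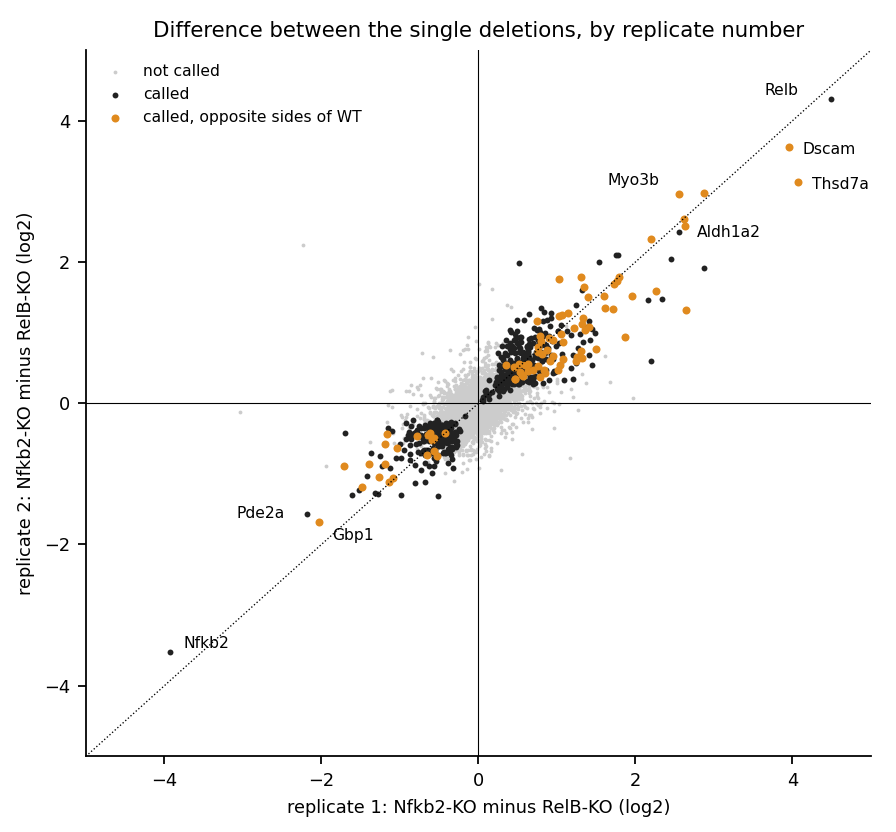
Difference between Nfkb2-KO and RelB-KO (log2) in replicate 1 (x axis) against replicate 2 (y axis), 1 point for each of 13797 genes; black and orange points are the 615 called genes, and orange points are the 87 on opposite sides of WT. Called genes lie to the lower left and the upper right of the centre, with Relb, Dscam and Thsd7a highest and Nfkb2, Pde2a and Gbp1 lowest.

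WT lay between the 2 deletions for a subset of these genes. The subset was defined as genes called between Nfkb2-KO and RelB-KO whose differences from WT had opposite signs, each at an unadjusted p under 0.05, and these values are therefore given as a description. It held 87 genes (0.631% of those tested): 67 (0.486%) were above WT in Nfkb2-KO and below WT in RelB-KO, and 20 (0.145%) were the reverse. In 86 of the 87, the WT library lay between the deletions of the same replicate number for both numbers, which was so for 11.6% of all genes tested. Both comparisons use the same WT libraries. Over all genes tested, 87 had opposite signs with both unadjusted p-values under 0.05, and 89 had the same sign.

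The RelB-KO side of this pattern was the weaker one. Against WT, 402 genes (2.91%) were called in Nfkb2-KO and 2 (0.0145%) in RelB-KO. An unadjusted p under 0.05 was reached by 18.3% of genes in Nfkb2-KO and by 3.13% in RelB-KO. Of the 87 genes, 49 were called in Nfkb2-KO against WT and 1, Serpina3g, in RelB-KO. Among the 67 genes, Nfkb2-KO lay 0.20 to 2.87 above WT (median 0.62) and RelB-KO 1.34 to 0.17 below it (median difference -0.35), and Nfkb2-KO was farther from WT in 55. Among the 20, Nfkb2-KO had a median difference from WT of -0.45 and RelB-KO of 0.32, and Nfkb2-KO was farther in 14. At the edge of the rule, Zc3h12c was inside with an unadjusted p of 0.048 in RelB-KO, and Pik3c2b was outside at 0.0503. In the authors' deposited table the log2 fold changes against WT had opposite signs in 87 of the 87 genes. That table comes from the same libraries that chose the genes, so this is no independent evidence. That table's own adjusted p was under 0.05 in Nfkb2-KO for 57 of the 87 (5.36% of all genes) and in RelB-KO for 6 (0.0942% of all genes): Dscam, Ltb, Marcksl1, Pkdcc, Ptpn5 and Serpina3g. These 6 passed there in both deletions.

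These counts moved with the processing and with single libraries. Without the replicate block 26 genes met the rule, all among the 87. Without WT replicate 2 the count was 39, 30 of them among the 87, and without Nfkb2-KO replicate 1 it was 56, with 47 among them. WT replicate 1 stood apart in the sex-linked genes: its Xist was 8.17, where the other 7 libraries had 14.6 to 15.1, and its Ddx3y was 11.60, where they had 4.25 to 4.35. By these genes WT replicate 1 was male and the other 7 libraries were female. It thus differed in sex from the other WT library and from every knockout library, and the part of sex in the distances from WT was not tested. Without WT replicate 1, 73 genes met the rule, and 43 of them were among the 87. Without RelB-KO replicate 1, 83 genes met the rule and 35 of them were among the 87. The difference between Nfkb2-KO and RelB-KO itself does not depend on the WT levels.

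Serpina3g, a serine protease inhibitor that protects against lysosomal cathepsins, passed against WT in both deletions in the limma fit. It stood at 10.25 and 10.42 in RelB-KO, at 11.10 and 11.49 in WT and at 11.97 and 12.11 in Nfkb2-KO, in an order with no overlap. Such an order is favoured by the rule that chose the genes, here and below. Its share over all genes was not counted. Nfkb2-KO was 0.75 ± 0.08 above WT (limma adjusted p = 0.00278) and RelB-KO lay below it (-0.96 ± 0.08, adjusted p = 0.00959). In the authors' deposited table the 2 log2 fold changes were 0.80 and -1.04. Serpina3f, of the same family, had smaller differences, with 7.34 and 7.26 in Nfkb2-KO, 7.02 and 7.11 in WT and 6.64 and 6.80 in RelB-KO. For Serpina3f neither difference from WT was called in the limma fit. Reads of close copies can be split between such genes, so both values are uncertain.

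Dscam was the gene of the 67 that lay farthest below WT in RelB-KO. Its WT libraries stood at 7.14 and 7.84, so that Nfkb2-KO was 2.45 ± 0.17 above and RelB-KO 1.34 ± 0.17 below them. Marcksl1, an actin-binding protein of the MARCKS family, stood at 9.53 and 10.07 in RelB-KO, 10.57 and 10.54 in WT and 11.49 and 11.59 in Nfkb2-KO. Its distances from WT were close in size, 0.99 ± 0.13 upward and 0.75 ± 0.13 downward. Myo3b was at 9.77 and 9.52 in RelB-KO, 10.08 and 10.90 in WT and 12.32 and 12.48 in Nfkb2-KO. The 3 groups did not overlap in Dscam, Marcksl1 or Myo3b.

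Ltb, the lymphotoxin beta ligand whose receptor signals through the alternative pathway, was shifted by like amounts in the 2 directions. It stood at 12.29 and 12.45 in RelB-KO, 12.83 and 12.78 in WT and 13.19 and 13.38 in Nfkb2-KO (0.48 ± 0.09 above WT and 0.43 ± 0.09 below it). Ptpn5, a tyrosine phosphatase, was at 9.37 and 9.47, at 9.93 and 9.94, and at 10.45 and 10.34 in the same order. Sema6d, a semaphorin, was at 7.60 and 7.65 in RelB-KO and at 8.02 and 8.29 in WT, and Nfkb2-KO lay 0.92 ± 0.13 above WT. In each of these 3 genes the groups were ordered RelB-KO, WT, Nfkb2-KO with no overlap, which the rule of choice favours.

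Other genes with this order were less even. Pkdcc was at 6.56 and 6.55 in RelB-KO, 7.22 and 7.94 in WT and 8.82 and 8.14 in Nfkb2-KO. In Arnt2, a transcription factor of the bHLH-PAS family, Nfkb2-KO was 0.58 ± 0.16 above WT and RelB-KO 0.62 ± 0.16 below it. Its Nfkb2-KO replicate 2 (9.69) lay close to WT replicate 2 (9.52). Nrn1, the membrane-anchored protein neuritin, differed from WT by 0.82 ± 0.20 and -0.58 ± 0.20, Ecel1 by 1.18 ± 0.34 and -0.81 ± 0.34, and Thsd7a by 2.87 ± 0.30 and -0.73 ± 0.30. In the authors' deposited table the RelB-KO log2 fold change was much smaller, -0.154 for Ecel1 and -0.075 for Thsd7a. D430019H16Rik, a gene without an established role, differed by 0.74 ± 0.18 and -0.51 ± 0.18. In the limma fit Thsd7a was the only gene of this paragraph whose Nfkb2-KO difference from WT was called over all genes. The RelB-KO difference was called for none of them.

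**Figure D2:**
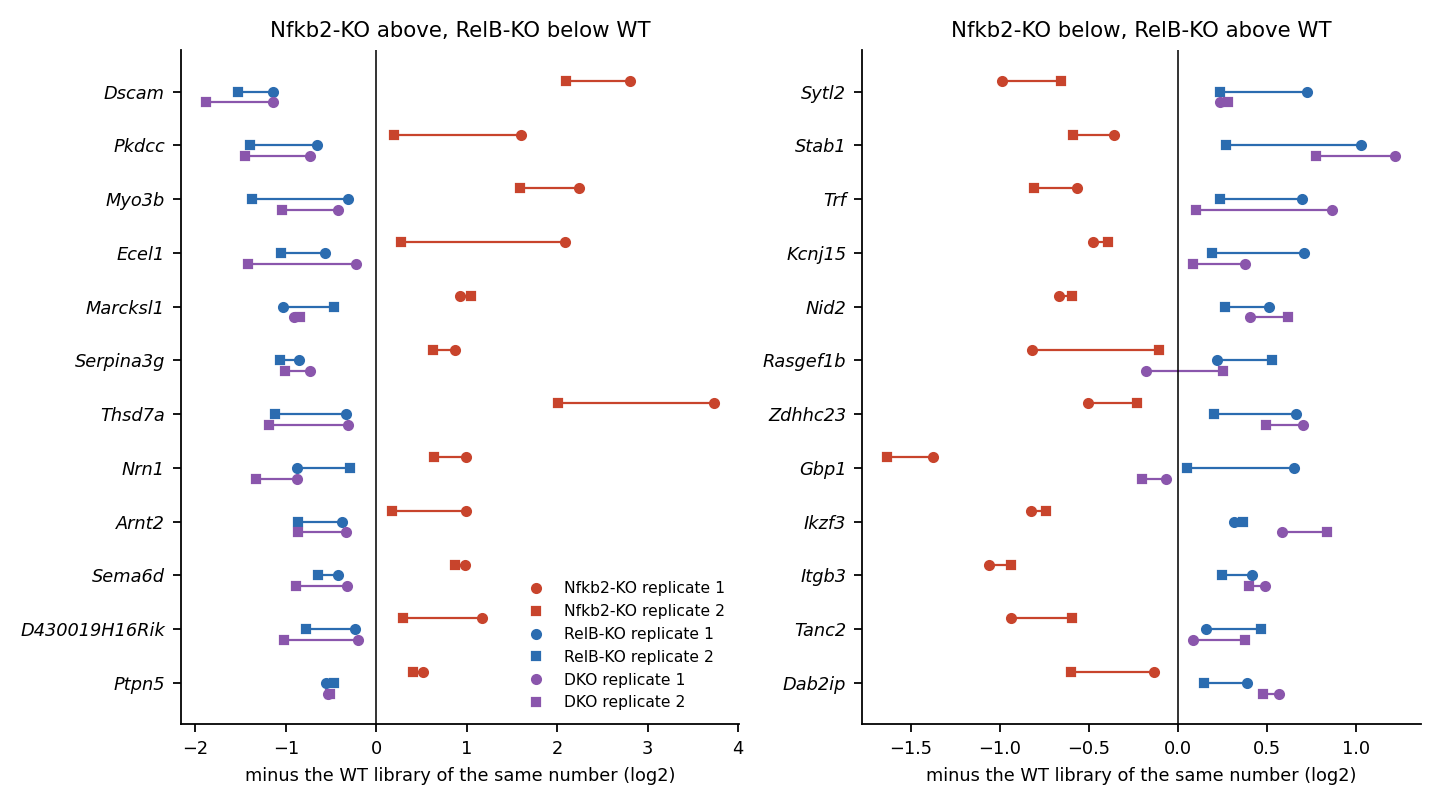
Distance (log2, x axis) of each Nfkb2-KO, RelB-KO and DKO library from the WT library of the same replicate number (vertical line at 0), for the 12 genes of each direction with the largest smaller distance; circles are replicate 1, squares replicate 2, and lines join them. In the left panel red Nfkb2-KO points lie right of WT and blue RelB-KO points left of it, the right panel shows the reverse, and purple DKO points lie on the RelB-KO side of WT in nearly all genes, with Gbp1 and 1 library of Rasgef1b as exceptions.

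In the reverse group, Ikzf3 stood at 11.32 and 11.49 in Nfkb2-KO, 12.14 and 12.23 in WT and 12.46 and 12.60 in RelB-KO, so that Nfkb2-KO differed from WT by -0.78 ± 0.08 and RelB-KO by 0.34 ± 0.08. Stab1 was at 8.40 and 8.53 in Nfkb2-KO, 8.76 and 9.12 in WT and 9.79 and 9.39 in RelB-KO. Itgb3 was at 8.19 and 8.11, at 9.25 and 9.05, and at 9.67 and 9.30. Nid2, a basement membrane protein, was at 5.76 and 5.84, at 6.43 and 6.43, and at 6.95 and 6.70. None of these 4 genes had overlapping groups, which the rule of choice favours as well. In the limma fit their RelB-KO differences from WT were not called over all genes, and for Stab1 the Nfkb2-KO difference was not called either.

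Gbp1 differed from WT by -1.51 ± 0.13 in Nfkb2-KO, while its RelB-KO libraries (8.75 and 8.61) lay 0.35 ± 0.13 above WT on average and replicate 2 was near its WT library (8.56). Sytl2 (-0.82 and 0.48 from WT), Trf (-0.69 and 0.47), Tanc2 (-0.77 and 0.31) and Kcnj15, a potassium channel (-0.44 and 0.45), belonged to this group too. So did Rasgef1b, an exchange factor for Ras-like GTPases (-0.46 and 0.37), Zdhhc23, a palmitoyltransferase (-0.36 and 0.43), and Dab2ip, a GTPase activator (-0.37 and 0.27). For Trf, Kcnj15, Rasgef1b, Zdhhc23 and Dab2ip neither difference from WT was called over all genes in the limma fit. For Gbp1, Sytl2 and Tanc2 the Nfkb2-KO difference was called and the RelB-KO difference was not. In the annotation, exons of Nid2 overlap those of Rtraf, those of Stab1 overlap Nt5dc2 and those of Nrn1 overlap Fars2. Whether reads were counted by strand is not given in the sources used here, so such genes are uncertain.

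**Figure D3:**
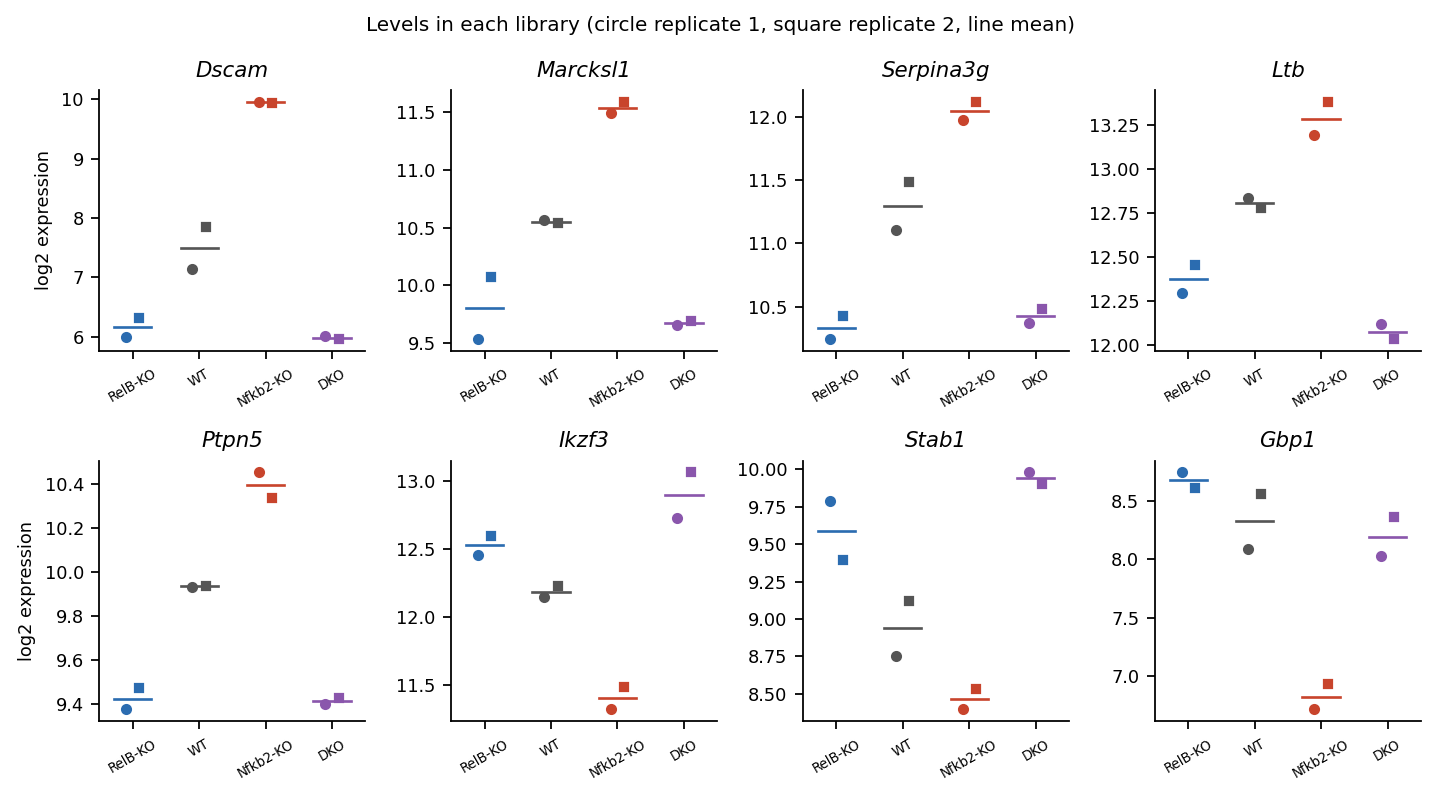
Deposited log2 expression (y axis, separate range for each gene) of 8 genes in each library, with circles for replicate 1, squares for replicate 2 and lines for the mean of 2. In Dscam, Marcksl1, Serpina3g, Ltb and Ptpn5 the order rises from RelB-KO through WT to Nfkb2-KO, in Ikzf3, Stab1 and Gbp1 it falls, and the DKO libraries lie on the RelB-KO side of WT except in Gbp1.

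Promoter letters are shown because NF-kB dimers bind DNA at a known 10-base consensus (the kB motif) and both deleted genes encode NF-kB subunits. RefSeq starts on GRCm38.p6, which has the mm10 coordinates, were matched for 59 of the 67 genes above WT in Nfkb2-KO and for 13 of the 20 below it. The 250 bases before each start were searched on both strands. The motif was found for 8 of the 59 genes (13.6%) and for 0 of the 13, against 612 of 10832 genes tested (5.65%), 9.36% of genes called higher in Nfkb2-KO and 10.4% of those called lower. A match is a description of letters and not a measured binding site. The 8 genes were Ankrd6, Bcl10, D430019H16Rik, Ltb, Padi2, Serpina3g, Sh3gl3 and Tnip3. For the 5 whose surroundings overlap no annotated exon, 60 bases are printed 5′ to 3′ on the gene's strand with the motif in capitals:
Serpina3g (chr12:104236037-104236096, plus strand): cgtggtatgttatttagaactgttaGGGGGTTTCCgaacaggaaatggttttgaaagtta
Tnip3 (chr6:65590319-65590378, plus strand): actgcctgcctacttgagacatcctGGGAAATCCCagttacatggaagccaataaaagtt
Ankrd6 (chr4:32864669-32864728, minus strand): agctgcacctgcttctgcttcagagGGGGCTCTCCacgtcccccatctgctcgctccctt
Padi2 (chr4:140906284-140906343, plus strand): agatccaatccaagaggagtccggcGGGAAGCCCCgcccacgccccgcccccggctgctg
D430019H16Rik (chr12:105453796-105453855, plus strand): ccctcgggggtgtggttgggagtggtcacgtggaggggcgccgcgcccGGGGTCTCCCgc

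The printed motifs end 76 bases before the start in Serpina3g, 45 in Tnip3, 161 in Ankrd6, 42 in Padi2 and 3 in D430019H16Rik. The Tnip3 and Ankrd6 stretches lie inside longer annotated gene models, between exons. Tnip3, an inhibitor of NF-kB signalling related to the ABIN proteins, stood at 8.43 and 8.54 in RelB-KO, 8.74 and 8.86 in WT and 10.03 and 10.06 in Nfkb2-KO. Ankrd6, an ankyrin-repeat protein, stood at 8.63 and 8.52, at 8.92 and 8.92, and at 9.58 and 9.42. Padi2, which converts arginine to citrulline in proteins, stood at 8.25 and 8.39, at 8.41 and 8.81, and at 9.57 and 9.50. In each of the 3 genes Nfkb2-KO was clear of WT, and in Padi2 RelB-KO replicate 2 came close to WT replicate 1. These 3 genes were picked for their promoters after their values had been seen.

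The levels in DKO cells, which lack both genes, were set beside those of the single deletions. For each called gene the position of a group mean was taken as the percent of the way from RelB-KO (0) to Nfkb2-KO (100). Over the 613 called genes other than Relb and Nfkb2, WT had a median position of 15.0 and DKO of 8.41. WT lay within 25 of the RelB-KO level in 420 genes (68.5%) and DKO in 352 (57.4%), whereas DKO lay within 25 of the Nfkb2-KO level in 14. Among the 67 genes above WT in Nfkb2-KO, DKO had a median position of -0.36 and lay within 25 of RelB-KO in 51. Among the 20 it had a median of 9.80 and lay within 25 in 10. The positions share the Nfkb2-KO and RelB-KO libraries with the choice of genes and are given as a description.

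Single genes followed the same order. Marcksl1 was at 9.65 and 9.69 in DKO, Ptpn5 at 9.40 and 9.43 and Serpina3g at 10.37 and 10.48, each near the RelB-KO values above. Ikzf3, at 12.73 and 13.06 in DKO, was above both RelB-KO libraries, and Ltb, at 12.11 and 12.03, was below both. Il17a, a helper T cell cytokine, was at 5.74 and 5.78 in DKO, near WT (5.85 and 5.73) and between RelB-KO (5.39 and 5.51) and Nfkb2-KO (6.34 and 6.18). DKO differed from Nfkb2-KO in 77 of the 87 genes (5.02% of all genes tested), which is a description too, since the genes were chosen with the same Nfkb2-KO libraries. Between DKO and RelB-KO limma called 0 of the 87 and 0.0145% of all genes, and 20 of the 87 and 8.81% of all genes had an unadjusted p under 0.05. The RelB-KO libraries also entered the choice of genes.

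**Figure D4:**
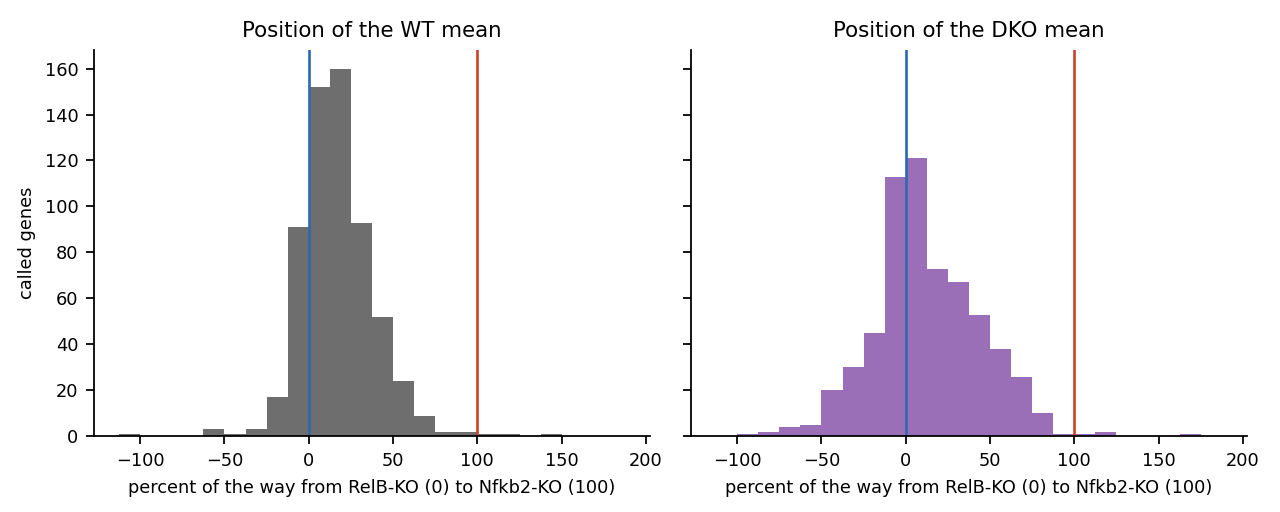
Number of called genes (y axis, 613 genes without Relb and Nfkb2) by the position of the WT mean (left) and the DKO mean (right), in percent of the way from RelB-KO (blue line at 0) to Nfkb2-KO (red line at 100). Both distributions peak near the RelB-KO line, with medians of 15.0 for WT and 8.41 for DKO, and few genes lie near the Nfkb2-KO line.

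For a small number of genes it was RelB-KO that stood apart by group means and WT that lay with Nfkb2-KO. WT had a position above 75 in 7 of the 613 genes. Ifng, the interferon gamma gene, stood at 7.48 and 7.94 in RelB-KO, 8.20 and 8.33 in Nfkb2-KO and 8.31 and 8.66 in WT. Ebi3, a subunit of the cytokines IL-27 and IL-35, was the other way round, at 9.77 and 9.44 in RelB-KO, 9.09 and 9.10 in Nfkb2-KO and 9.09 and 9.10 in WT. The differences between the deletions were 0.55 ± 0.12 for Ifng (limma adjusted p = 0.0406) and -0.51 ± 0.10 for Ebi3 (adjusted p = 0.0227), and neither was called without the replicate block. Tbx21, the T-bet factor that drives Ifng, was among the 7 as well, at 9.44 and 10.28 in RelB-KO, 10.64 and 10.62 in Nfkb2-KO and 10.41 and 10.61 in WT. It was named after its values were seen and was not called without the block either. In DKO, which also lacks Relb, Ifng stood at 8.35 and 8.31 and Tbx21 at 10.17 and 10.62. By group means both were nearer to Nfkb2-KO than to RelB-KO. Ebi3 stood at 9.81 and 9.68 in DKO, on the RelB-KO side. The DKO differences of these genes from RelB-KO were not called. In the limma fit the RelB-KO differences of Ifng, Ebi3 and Tbx21 from WT were not called over all genes. In the authors' deposited table the adjusted p of that comparison was under 0.05 for Ifng and Ebi3.

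Gene groups of the pathway and of T cell biology differed in how they were split between the deletions. The shares to set them against are the 2.78% of all genes called higher and the 1.67% called lower, and a median difference of -0.0015 over all genes tested. Of 12 genes of alternative pathway signalling, 5 were higher in Nfkb2-KO, with a median of 0.23. They were the ubiquitin ligase Birc2 (0.89 ± 0.11), the adaptors Traf1 (0.74 ± 0.11), Traf2 (0.46 ± 0.07) and Traf3 (0.36 ± 0.07), and the deubiquitinase Otud7b (0.44 ± 0.07). Of 10 inhibitors and feedback regulators of NF-kB, 2 were higher, Nfkbie (0.74 ± 0.10) and Tnip2 (0.61 ± 0.07). Birc2 and Tnip2 were the ones of these 7 genes also called without the replicate block.

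Of 29 NF-kB target genes, 10 were higher and 1 lower, with a median of 0.32. Besides Vcam1 and Ltb these were the survival genes Bcl2a1a (0.50), Bcl2a1b (0.64) and Bcl2a1d (0.69), Irf4 (0.65), Junb (0.53), Lta (0.48), Nfkbie and Traf1, and Ebi3 was the lower one. Bcl2a1b met the rule for opposite sides of WT, with 11.10 and 10.55 in Nfkb2-KO, 10.83 and 10.19 in WT and 10.25 and 10.11 in RelB-KO. The WT libraries overlapped those of both deletions, and the order held within each replicate number. Neither difference from WT was called over all genes. The Bcl2a1 copies are near-identical, and their values are uncertain. Without the block 2 of the 29 remained higher, Vcam1 and Ltb.

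Of 20 genes of resting T cells, 9 were lower in Nfkb2-KO than in RelB-KO and 1 was higher, with a median of -0.42. Besides Satb1 and Il6ra these included Foxp1 (-0.73), Klf2 (-0.67), Klf3 (-0.56), Tsc22d3 (-0.75), S1pr4 (-0.45) and Cd27 (-0.43), while Il7r was higher (0.83). Without the block Il6ra was the 1 member called. Of 33 interferon-stimulated and GBP genes 6 were lower (median -0.30): Gbp2, Gbp3, Gbp7 (-0.87), Gbp4 (-0.67), Gbp5 (-0.66) and Irgm2 (-0.64). Gbp7 stayed called without the block, and reads of these close relatives may be shared. In both lists WT was near RelB-KO, with median differences of RelB-KO from WT of -0.04 and -0.03 against -0.48 and -0.29 in Nfkb2-KO, and 0 of the listed members met the rule for opposite sides. Gbp1, described above, is not in the list and did meet it.

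Adhesion and matrix genes went both ways. Of 26 tested, 6 were higher (Dscam, Thsd7a, Hspg2, Vcam1, Itgb8 0.58 and Nid1 0.23) and 6 lower (Itgb3, Matn2, Nid2, Stab1, Plxnd1 -0.84 and Itga1 -0.17), the median was -0.02, and 6 of the 26 were on opposite sides of WT. Without the block 4 remained higher and 5 lower. Of 22 actin and cytoskeleton genes 7 were higher, among them Marcksl1, Capg (0.63) and Fscn1 (0.51), and Syne2 was lower (-0.69). Without the block 5 of them were called, all higher. Of 15 retinoic acid genes tested 5 were higher: Aldh1a2, the transporter gene Stra6 (0.95), the binding protein Crabp2 (0.78) and the receptors Rarg (0.51) and Rara (0.50). Aldh1a2 alone among these was called without the block and lay on opposite sides of WT, at 6.40 and 6.29 in WT. These lists were drawn up with results of these data in view, so their counts are not independent evidence.

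Of 21 cytokine genes tested, 6 were higher in Nfkb2-KO and Ebi3 was lower. Il21 differed by 1.14 ± 0.11, Ltb by 0.91 ± 0.09, Il17a by 0.81 ± 0.09, Il2 by 0.71 ± 0.14, Ifng by 0.55 ± 0.12 and Lta by 0.48 ± 0.10, and Il21, Ltb and Il17a were also called without the block. Of 14 cytotoxic granule genes 4 were higher (Serpina3g, Serpina3f 0.58, Fasl 0.56 and the granule proteoglycan Srgn 0.50) and Gzmb was lower, of which Serpina3g was called without the block. Of 10 MHC class II genes Cd74 (1.75), H2-Eb1 (1.26) and H2-Ab1 (0.66) were higher. H2-Eb1 was uneven, at 7.80 and 8.76 in Nfkb2-KO against 7.28 and 6.77 in RelB-KO. By the authors' deposited log2 fold changes the differences were 1.76 for Cd74, 0.47 for H2-Eb1 and 1.00 for H2-Ab1. Cd74, the invariant chain, was at 12.28 and 11.96 in Nfkb2-KO, 10.60 and 10.75 in WT and 10.51 and 10.23 in RelB-KO, and it was the 1 class II gene called without the block. The weakly expressed B cell marker Blk was also higher (0.26 ± 0.04), from 3.32 and 3.34 to 3.60 and 3.58. Of the 8 B cell markers tested, 4 differed upward and 4 downward, with a median of -0.0025, and Blk was the 1 called. A part of B cells in the class II values was not tested. The chemokine Xcl1 was on opposite sides of WT, 0.35 ± 0.12 above it in Nfkb2-KO and -0.44 ± 0.12 from it in RelB-KO. Neither difference of Xcl1 from WT was called over all genes, and its RelB-KO replicate 2 lay between the WT libraries. Its difference between the deletions was not called without the block.

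The remaining lists had few called members. Of 26 effector and tissue Treg genes 3 were higher (Lag3 0.99, Havcr2 0.84, Irf4) and 3 lower (Gzmb, Icos -0.54, Ebi3), with a median of -0.09. Havcr2, the inhibitory receptor TIM-3, lay on opposite sides of WT, at 9.09 and 9.12 in Nfkb2-KO, 8.58 and 8.58 in WT and 8.29 and 8.23 in RelB-KO. Of 17 core Treg genes Itgb8 and Capg were higher and Ikzf3 lower. Of 14 follicular T cell genes Il21 and Cd200 (1.02) were higher and Bcl6 (-0.56), Cxcr5 (-0.54) and Icos lower. Bcl6 differed from WT by -0.86 in Nfkb2-KO and -0.30 in RelB-KO and Cxcr5 by -0.81 and -0.27, of which the RelB-KO differences did not pass over all genes. Of 18 TNF receptors Tnfrsf11a, the receptor RANK (1.06), and Fas (0.68) were higher, and Tnfrsf26 (-0.53) and Cd27 were lower. Of 16 phosphodiesterases Pde2a and Pde1b (-0.68) were lower, of 26 cell cycle genes Mki67 (-0.56) and Ccna2 (-0.43) were lower, and of 21 cholesterol synthesis genes Fdft1 (0.40) and Fdps (0.39) were higher and Dhcr7 (-0.41) lower. Without the replicate block, the genes of this paragraph still called were Havcr2, Ikzf3, Il21, Tnfrsf11a and Pde2a, and the others were lost. In Mki67, Ccna2 and Fdps the Nfkb2-KO and RelB-KO libraries overlapped.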

How the data were processed

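Expression was read from the authors' table of 22432 genes in 8 libraries. Its values are log2, which the file header calls log2 RPKM with batch correction, per the file headers. The submitters' processing notes name STAR, mm10 and DESeq2 1.10.1 without roles, and the counter and batch method are not given in the sources used here. The un-logged library sums of the deposited values lay from 18.2 to 19.7 M, far above what RPKM tables give, so they are treated as log2 expression relative to library size. The same deposited table holds the authors' own log2 fold changes, with an adjusted p-value, for every knockout, and 8 further columns of z-scores were not used.

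Left out were 6247 genes at 0 in all libraries, 1 with a blank cell and those with a mean un-logged value under 1, which left 13797. For 25 genes the symbol had become a date, and none is named. A model in limma 3.58.1 (R 4.3.3) had terms for 4 genotypes and, as a block, the replicate number, with a variance trend, leaving 3 residual degrees of freedom, and was tested on simulated data. The block was kept because replicate 1 minus replicate 2 correlated across genes at 0.81 to 0.89 between the 6 pairs of genotypes; the labels do not say what the numbers mark. The replicate block is part of the rule of this comparison.

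Named were the 15 largest differences of each direction among called genes with 1 sign in both replicate numbers, 12 opposed genes of each direction ranked by the smaller distance from WT, called members of 24 gene lists (19 of pathways, 5 of markers), Relb and Nfkb2, and Foxp3, Il2ra, Ctla4 and Il10. The comparison, rule and lists were chosen with earlier results of these data known. Gene positions are from GENCODE vM21 and promoters from RefSeq, GRCm38.p6. Some genes that the naming rule picks are not reported here.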

Additional observations from a re-analysis of the deposited data

How the results depend on the processing

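The call of 615 genes (384 higher, 231 lower) was 110 (91 and 19) with no replicate block and 229 (165 and 64) with no variance trend. A required difference of 1 unit left 85. With only the 4 compared libraries in the fit, 351 genes were lower, and with no filter on low values 144 were. Leaving out 1 library at a time gave 229 to 782 calls, 185 to 465 higher and 44 to 317 lower, with the fewest without Nfkb2-KO replicate 1 and the most without WT replicate 2. The 87 genes on opposite sides of WT became 26 with no replicate block and 50 with no variance trend, and 39 to 107 with 1 library left out. The 311 called genes (2.25%) with WT between the deletions for both replicate numbers became 75 with no replicate block, 145 with no variance trend and 186 to 560 with 1 library left out; where that library was of WT or a single deletion, 1 replicate number remains to be met. The causes were not tested. Of the 111 called genes named by rule, 41 stayed called with no replicate block, 51 with no variance trend, 56 to 111 with 1 library left out and 94 to 110 under the other fits, and no direction reversed under the 16 alternatives run. Of the 87 genes, 84 to 86 met the rule with a pseudocount of 1, no filter, a minimum of 16 or quantile normalization, and 74 without the DKO libraries. Serpina3g, Dscam, Marcksl1, Ltb, Myo3b, Ptpn5, Sema6d, Igsf3, Ankrd6, Rab27a and Ikzf3 met it under all 15 alternatives that include WT. Ecel1 and Dab2ip met it under 4 of them, Rasgef1b under 5, and Thsd7a and Zdhhc23 under 6. Depth is unknown, so no counting error is given.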

Other observations

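Several transcription factors of T cells were among the 67 genes above WT in Nfkb2-KO and below it in RelB-KO. They were picked from the list after its values were seen. Bhlhe40, a repressor induced by activation, stood at 13.62 and 13.25 in Nfkb2-KO, 12.47 and 12.05 in WT and 12.31 and 11.46 in RelB-KO. Runx3 differed from WT by 0.62 ± 0.12 and -0.34 ± 0.12, and its relative Runx2 by 0.25 ± 0.08 and -0.23 ± 0.08. In Bhlhe40 RelB-KO replicate 1 lay between the WT libraries, and the RelB-KO differences of these 3 genes from WT were not called over all genes. For Runx2 the Nfkb2-KO difference from WT was not called either.

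Of the 87 genes, 7 more are given here, also picked after their values were seen, and none of their RelB-KO differences from WT was called over all genes. Il21r, the IL-21 receptor, stood at 12.65 and 12.81 in Nfkb2-KO, 12.27 and 12.39 in WT and 12.05 and 12.27 in RelB-KO. Il13ra1 differed from WT by 0.87 ± 0.15 and -0.40 ± 0.15, the kinase Jak3 by 0.26 ± 0.07 and -0.23 ± 0.07 and the chemokine Ccl1 by 0.82 ± 0.11 and -0.31 ± 0.11. Tnfsf11, the RANK ligand, differed by 0.20 ± 0.08 and -0.21 ± 0.08. The Nfkb2-KO differences of Jak3 and Tnfsf11 from WT were not called either. Rab27a, a GTPase of granule transport, was above WT in Nfkb2-KO (0.50 ± 0.07) and below it in RelB-KO (-0.28 ± 0.07), whereas its effector Sytl2 showed the reverse. Ripk3, a kinase of necroptosis, was below WT in Nfkb2-KO (-0.46 ± 0.08) and above it in RelB-KO (0.24 ± 0.08).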
